A study of Homo sapiens with 16 samples.

Results

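GM12878 is a human B-lymphoblastoid line transformed with Epstein-Barr virus, and the cells were left untreated or were stimulated with heat-killed Salmonella typhimurium (HKST) for 20, 40 or 60 min. Fixed nuclei from each time point were digested with 20 U (light) or 200 U (heavy) of micrococcal nuclease (MNase), and nucleosome-sized fragments were captured over the 2 kb around transcription start sites (TSSs). The 16 samples, 2 replicates of each time and digestion level, were deposited as 8 tables that pool both replicates. The promoters described here belong to the genes of molecular chaperones and heat shock proteins. They were chosen by gene symbol alone, as the HSP70, HSP90, HSP110 and small heat shock proteins, the chaperonins HSPD1 and CCT2 to CCT8, and the J-proteins of classes A, B and C, and they make up 89 of the 21857 promoters measured, at 87 distinct start sites. HSPA14 had a pair of entries at the same site, HSPB2 shared its site with the readthrough HSPB2-C11orf52, and 7 of the promoters belong to pseudogenes or antisense transcripts that carry a chaperone symbol. All 89 could be read at 40 and 60 min, 84 of them also in untreated cells, and 17 at every time, because the untreated heavy table and both 20 min tables end early as received. HSP90AB1, the constitutive cytosolic HSP90, is among the 5 promoters without an untreated heavy value.

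Chaperones bind unfolded or partly folded proteins and keep them from aggregating. HSP70 works in cycles of ATP hydrolysis that J-proteins start and nucleotide exchange factors end, HSP90 matures kinases and receptors, the ring-shaped chaperonins fold proteins in a closed chamber, and small heat shock proteins hold unfolded proteins without ATP. The stress-inducible genes among them are driven by heat shock factor HSF1, which binds heat shock elements built of inverted repeats of nGAAn, whereas many other members are expressed at all times for routine folding. In lymphocytes, chaperones are known for their part in protein synthesis during activation and in the handling of antigens.

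The sequences below run 5′ to 3′ over the 200 bp before the deposited TSS in hg19 (read from GRCh37), the stretch in which the -1 nucleosome was measured, and capitals mark heat shock elements (GAANNTTC or TTCNNGAA). The first 3 are the only promoters of the group in which 3 units follow each other in alternating orientation (GAANNTTCNNGAA or TTCNNGAANNTTC). The next 2 are the near-identical copies of the classical heat-inducible HSP70. The remaining 3 are promoters at which the sensitivity of this stretch changed by more than counting error after 60 min of HKST, 2 upward and DNAJC5G downward, and HSPA4 and DNAJC5G hold no element in this stretch.
HSPA8 (chr11:122932902-122933101, minus strand): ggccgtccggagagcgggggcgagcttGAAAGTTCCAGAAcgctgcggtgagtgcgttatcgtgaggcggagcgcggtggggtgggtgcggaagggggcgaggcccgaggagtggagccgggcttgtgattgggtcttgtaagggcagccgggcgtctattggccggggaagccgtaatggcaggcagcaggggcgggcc
HSPD1 (chr2:198364641-198364840, minus strand): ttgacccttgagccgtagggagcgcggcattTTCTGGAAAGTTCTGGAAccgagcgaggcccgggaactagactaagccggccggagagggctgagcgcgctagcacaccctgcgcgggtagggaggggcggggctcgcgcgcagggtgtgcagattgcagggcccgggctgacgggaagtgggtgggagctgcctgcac
DNAJB6 (chr7:157129510-157129709, plus strand): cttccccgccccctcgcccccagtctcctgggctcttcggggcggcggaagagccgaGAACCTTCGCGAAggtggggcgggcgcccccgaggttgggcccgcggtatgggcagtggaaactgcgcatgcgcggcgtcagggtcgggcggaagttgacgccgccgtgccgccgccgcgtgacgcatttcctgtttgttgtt
HSPA1A (chr6:31783091-31783290, plus strand): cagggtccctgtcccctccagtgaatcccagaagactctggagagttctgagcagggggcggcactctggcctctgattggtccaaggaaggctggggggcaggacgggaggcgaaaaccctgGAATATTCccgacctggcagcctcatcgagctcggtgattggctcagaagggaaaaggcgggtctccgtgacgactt
HSPA1B (chr6:31795312-31795511, plus strand): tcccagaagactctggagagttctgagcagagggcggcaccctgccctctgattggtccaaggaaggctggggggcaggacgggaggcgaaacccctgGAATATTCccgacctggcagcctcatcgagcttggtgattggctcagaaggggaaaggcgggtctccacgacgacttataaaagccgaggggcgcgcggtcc
HSPB1 (chr7:75931675-75931874, plus strand): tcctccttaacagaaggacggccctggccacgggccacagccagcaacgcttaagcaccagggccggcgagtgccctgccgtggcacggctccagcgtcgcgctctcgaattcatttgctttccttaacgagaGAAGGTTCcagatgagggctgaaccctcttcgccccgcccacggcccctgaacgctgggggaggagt
HSPA4 (chr5:132387462-132387661, plus strand): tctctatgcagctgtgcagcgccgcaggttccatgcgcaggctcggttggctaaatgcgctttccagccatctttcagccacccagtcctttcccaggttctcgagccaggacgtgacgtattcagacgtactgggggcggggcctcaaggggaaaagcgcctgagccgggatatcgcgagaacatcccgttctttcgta
DNAJC5G (chr2:27498089-27498288, plus strand): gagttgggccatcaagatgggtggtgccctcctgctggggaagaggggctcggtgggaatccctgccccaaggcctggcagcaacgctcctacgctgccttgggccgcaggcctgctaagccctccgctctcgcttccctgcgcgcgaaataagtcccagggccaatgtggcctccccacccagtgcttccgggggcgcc

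Both strands of the 300 bp before the deposited TSS were searched, and a match describes the letters only. A heat shock element stood in 22 of the 89 promoters (24.7%), against 12.4% of all promoters, and the form of 3 units in 3 promoters (3.37%), against 0.453% of all. HSPD1, whose 2 kb also covers the start of HSPE1 on the other strand 224 bp away, held a longer run than HSPA8 and DNAJB6, with 18 bases in capitals against 13 in each of those. The HSPA1A and HSPA1B promoters were 93.8% identical over 275 aligned bases. Only unique alignments were kept, so fragments that match both copies may be missing from both. A CCAAT box (CCAAT or ATTGG) was found in 41.6% of the group, against 36.1% of all promoters, and TATAAA (or TTTATA) in 11.2%, against 11.7%. A protein-coding start on the opposite strand up to 1 kb upstream was more frequent, at 31.5% of the group against 12.5% of all promoters, with the pairs CCT4 and COMMD1, CCT6A and PSPH, and HSP90AA1 and WDR20 as examples. The group's share counts both entries of HSPA14 and of the HSPB2 site. It also counts pairs within the group, namely DNAJC27-AS1 and DNAJC9-AS1 with DNAJC27 and DNAJC9, and HSPA1A and HSPA1L with each other. The median GC content was 61.3%, against 59% of all promoters. A GENCODE transcript start was found no more than 50 bp from 71.9% of the group's deposited start sites, against 79.9% of all. Those of HSPA6 and HSPB7 lay 294 bp and 717 bp away. Those of DNAJB8, DNAJC10, HSPB1, HSPB8, HSPA14, CCT3, HSPB3, HSPB9, DNAJA1 and HSPH1 also lay more than 50 bp away. The positions below are approximate for all of these.

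Sensitivity is log2 of light over heavy signal, where the signal is the mean over 10 bp bins of fragment centers in reads per M sequenced fragments (rpm), with 0.122 rpm added to both. A positive value means that a nucleosome was recovered better by light than by heavy digestion. The recovered depths ranged between 9.43 and 10.5 M fragments in the light tables and between 3.27 and 7.04 M in the heavy tables. Because each table pools both replicates, no spread between replicates could be measured and no test across samples was possible. The 95% intervals given are exact and cover counting error only, and time cannot be told apart from how far each reaction was digested. The same untreated tables served as control for all 3 HKST times. Counts were low at single promoters. Between -200 and 0 bp untreated members had a median of 11.9 light and 4.54 heavy fragments, those at 40 min 14.3 and 3.92, and those at 60 min 14.5 and 7.58. No heavy fragment was found at 13 members without HKST, 26 after 40 min and 14 after 60 min. Nucleosome fragments give no expression level, so the identity of the cells was not checked against marker genes.

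In untreated cells the -1 window of chaperone promoters was on the sensitive side. The median log2 ratio was 0.28 over 84 members (quartiles -0.22 and 0.68), against 0.03 over all promoters. Values of 1 or more were seen at 11 members (all promoters: 11.7%) and of -1 or less at 3 (all promoters: 8.05%). The +1 window, 50 to 250 bp after the TSS, had a median of -0.11 in the group and of -0.12 in all promoters. Total signal between -100 and 50 bp was low relative to the whole 2 kb, with a median log2 ratio of -2.30 at chaperone promoters and of -1.86 at all promoters, so the signal in the nucleosome-free region was lower. Across promoters, GC content and untreated sensitivity ran against each other with Pearson's r of -0.24 over 84 members and -0.38 over all promoters, and all points come from the same libraries.

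**Figure D1:**
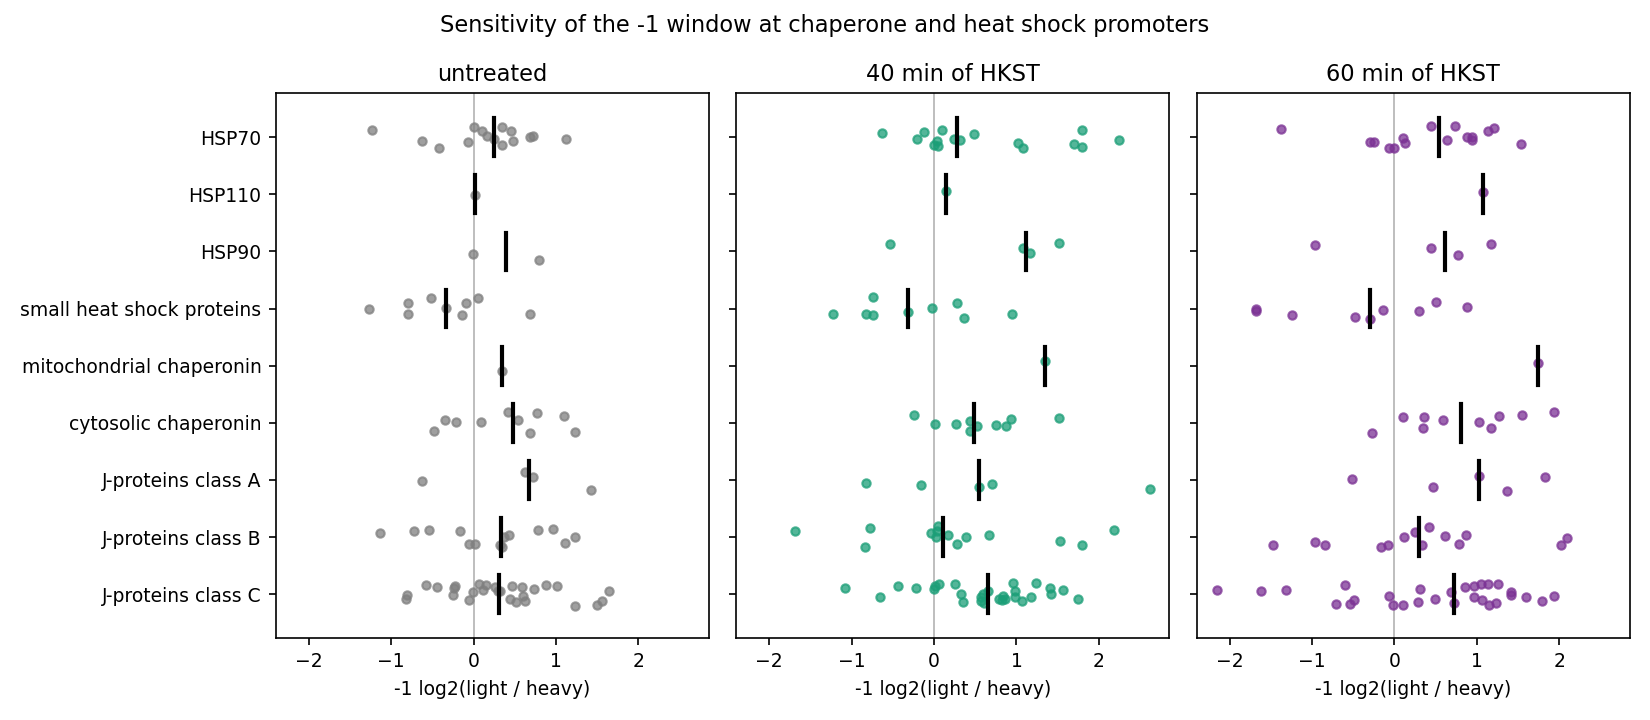
Each point is 1 promoter, placed by log2 of light over heavy signal between -200 and 0 bp, for untreated cells and for 40 and 60 min of HKST, with the families as rows and black bars as medians. The small heat shock proteins lie to the left of the other families with several members at each time, with medians of -0.33, -0.32 and -0.30, while the J-proteins of class A have medians of 0.67, 0.55 and 1.03 and the cytosolic chaperonin genes 0.48, 0.48 and 0.81.

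The medians varied between families, which no test compares. The cytosolic chaperonin CCT, which folds actin and tubulin, had a median of 0.48 over 10 promoters in untreated cells, and the J-proteins of class A had 0.67 over 4. J-proteins of classes B and C had 0.33 (14 promoters) and 0.31 (28 promoters), and the HSP70 genes 0.25 (15 promoters). Here and below the HSP70 genes are all those with an HSPA symbol, HSPA4, HSPA12A and HSPA12B among them. Both entries of HSPA14 are counted. The 9 small heat shock protein promoters had a median of -0.33, and over the whole 2 kb their median was -0.71, against 0.06 for all promoters. Here and below the family figures count HSPB2 and its readthrough separately, though they share a start site and its values. With that site as a single entry, the 2 kb median would lie between the values of HSPB7 and HSPB1. The small heat shock proteins varied among themselves, with 2 kb log2 ratios of -1.03 at HSPB9, -0.79 at HSPB8, -0.74 at HSPB2 and its readthrough, and -0.71 at HSPB7, and of -0.31 at HSPB1, -0.20 at HSPB6, 0.05 at HSPB11 and 0.23 at HSPB3. Members of other families stood at the same resistant end, with -1.02 at HSPA12B and -0.72 at HSPA12A, which encode distant relatives of HSP70, and -0.81 and -0.80 at the J-protein genes DNAJA4 and DNAJB8. Of all promoters, 1.53% had a value below that of HSPB9 and 7.29% one below that of HSPB7.

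How full the nucleosome-free region was varied widely, among stress-inducible promoters too. In untreated cells, the signal between -100 and 50 bp relative to 2 kb was -0.28 on the log2 scale at HSPA1A and 0.30 at HSPA1B, the stress-inducible cytosolic HSP70 genes, and -0.56 at DNAJB1, their inducible J-protein partner. DNAJB1 had almost no fragments in its -1 window, so its value does not show that the region was filled. Fragments that match both HSPA1A and HSPA1B were not kept, which may affect the values of both. HSPA6, another inducible HSP70, had 0.19 around a start site that is approximate. The value was -3.40 at HSPA8, the constitutive cytosolic HSP70, -4.51 at DNAJA1, a cytosolic J-protein, and -1.71 at HSPA5, the HSP70 of the endoplasmic reticulum. HSP90AA1, the stress-inducible cytosolic HSP90, had -3.38, near the group's lower quartile of -3.39, and HSPH1, an inducible HSP110, had -2.48, near the group's median. HSPH1 had only 1 light and no heavy fragment in its -1 window, which covers most of this stretch. These members were set side by side for their known roles after their values were seen.

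After 40 min of HKST the members' median -1 change was 0.19 on the log2 scale, against 0.05 over all promoters. Rises of 1 or more were seen at 13 of 84 members (12 of 82 start sites) and falls of 1 or more at 1, against 11.5% and 5.61% of all promoters. Only DNAJA3, a mitochondrial J-protein, had an interval above 0, and none had one below, out of 73 members with an interval (all promoters: 1.69% above and 1.47% below). DNAJA3 had 4.40 rpm of light and 1.56 rpm of heavy signal in untreated cells, 5.73 and 0.833 rpm at 40 min, and 5.77 and 1.53 rpm at 60 min. Light signal was higher at both HKST times, while heavy signal was low at 40 min only, when it rested on 9 fragments. The 40 min change was 1.19 (95% interval 0.12 to 2.63). At 60 min DNAJA3 stood 0.40 above untreated cells with an interval that included 0, and over the whole 2 kb its change at 40 min was 0.23 with an interval that included 0. HSPA8 had 4 light fragments and 1 heavy fragment in untreated cells, 14 and 0 at 40 min, and 8 and 2 at 60 min. Its log2 ratio of 2.25 at 40 min was the highest of the HSP70 genes, but these counts allow any change above -4.40.

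After 60 min the members' median -1 change was 0.29, against 0.03 over all promoters. Rises of 1 or more were seen at 11 of 84 members (all promoters: 9.60%) and falls of 1 or more at 5 (all promoters: 4.29%). Of 76 members with an interval, 4 lay above 0 and 2 below, against 2.36% and 2.21% of all promoters. The 2-fold counts rest on low counts: with 5 or more heavy fragments at both times, 2 members rose by 1 or more and 1 fell, and with a pseudocount of 0.5 of the mean value 1 rose and 0 fell. The members' median change of light signal was 0.01 and that of heavy signal -0.18. For the HSP70 genes, HSPA4 included, the median -1 change at 60 min was 0.32, and for the cytosolic chaperonin 0.33. For J-proteins of classes A, B and C it was 0.25, -0.02 and 0.23, and for the small heat shock proteins -0.15.

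**Figure D2:**
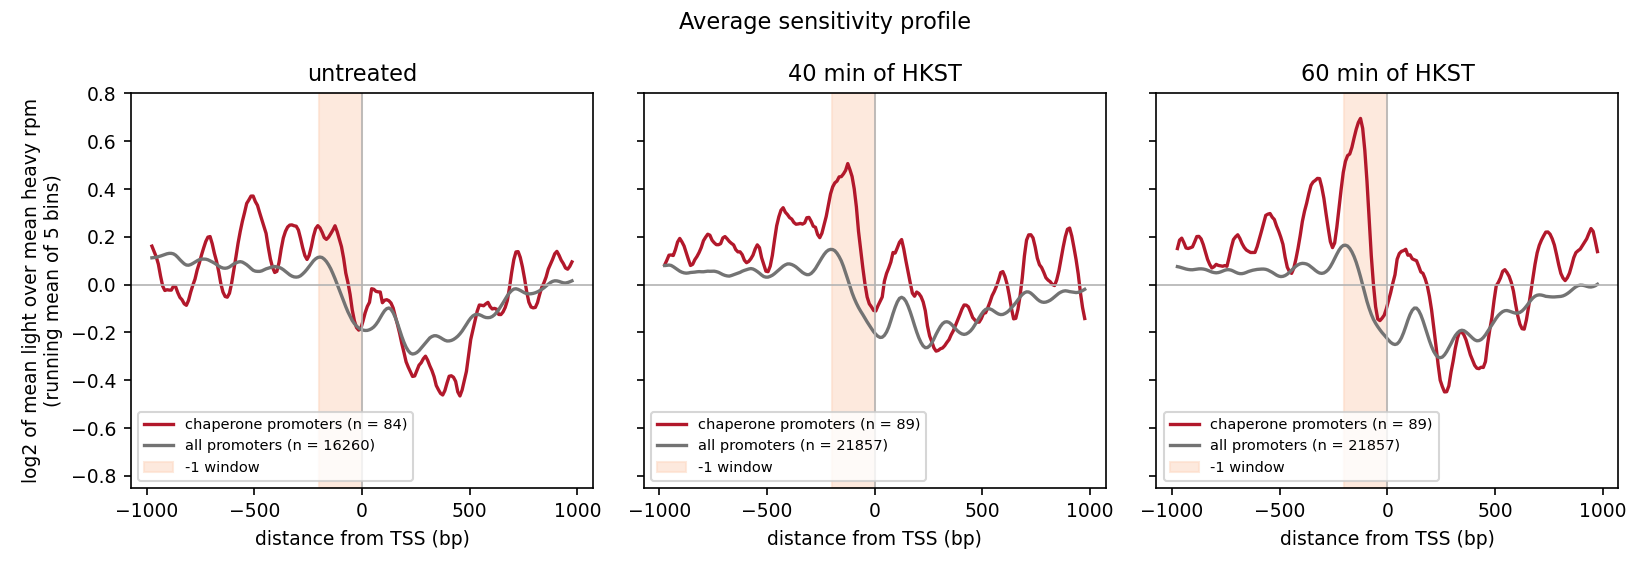
Log2 of mean light over mean heavy signal (running mean of 5 bins of 10 bp) against the distance from the TSS, for chaperone promoters (red) and all promoters (grey), in untreated cells and at 40 and 60 min of HKST, with the -1 window shaded. The red curve peaks in the shaded window at 40 and 60 min and stands higher there than in untreated cells, where the median over members was 0.28, against 0.43 at 40 min and 0.49 at 60 min over 89 members.

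HSPA4, an HSP110-type nucleotide exchange factor for HSP70, had the highest rise past counting error. It had 21 light and 15 heavy fragments in the -1 window of untreated cells, 33 and 5 at 40 min, and 35 and 7 at 60 min. Light fragments were more and heavy fragments fewer at both HKST times. The log2 ratio was 1.53 at 60 min, against -0.42 in untreated cells, a change of 1.95 (0.58 to 3.99), and 0.819% of all promoters had a higher change. CCT5, a subunit of the cytosolic chaperonin, had 2.39 rpm of light and 1.35 rpm of heavy signal in untreated cells, 3.54 and 1.16 rpm at 40 min, and 3.57 and 0.845 rpm at 60 min. Light signal was higher and heavy signal lower at both HKST times. Its change was 1.16 (0.18 to 2.31) at 60 min and 0.74 at 40 min, when the interval included 0.

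HSPB1, the small heat shock protein known as Hsp27, was the best covered of the members that rose. It had 2.96 rpm of light and 3.75 rpm of heavy signal in untreated cells, 3.71 and 3.03 rpm at 40 min, and 3.69 and 2.57 rpm at 60 min, so that heavy signal led in untreated cells and light signal led at both HKST times. Its log2 ratio was 0.50 at 60 min, against -0.33 in untreated cells, a change of 0.83 (0.20 to 1.54). DNAJC10, a disulfide reductase of the endoplasmic reticulum, had 3.14 rpm of light and 2.04 rpm of heavy signal in untreated cells, 3.32 and 1.34 rpm at 40 min, and 3.31 and 1.16 rpm at 60 min. Light signal was close at the 3 times and heavy signal was lower after HKST. The change at 60 min was 0.83 (0.03 to 1.79), with an interval that came close to 0.

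DNAJC5G and DNAJC13 fell. DNAJC5G, a testis relative of the cysteine string protein, had 1.20 rpm of light and 1.85 rpm of heavy signal in untreated cells, 0.870 and 1.44 rpm at 40 min, and 0.541 and 1.91 rpm at 60 min. Heavy signal exceeded light signal at each of these times, by most at 60 min, when light signal was lowest. This was a change of -1.05 at 60 min (-2.34 to -0.08). DNAJC13, which works in the sorting of endosomes, rested on few fragments, with 4 light and 2 heavy in untreated cells, 3 and 1 at 40 min, and 0 and 9 at 60 min. Its change was -2.28, with an upper bound of -0.12, while over its whole 2 kb the change was 0.08, the other way.

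**Figure D3:**
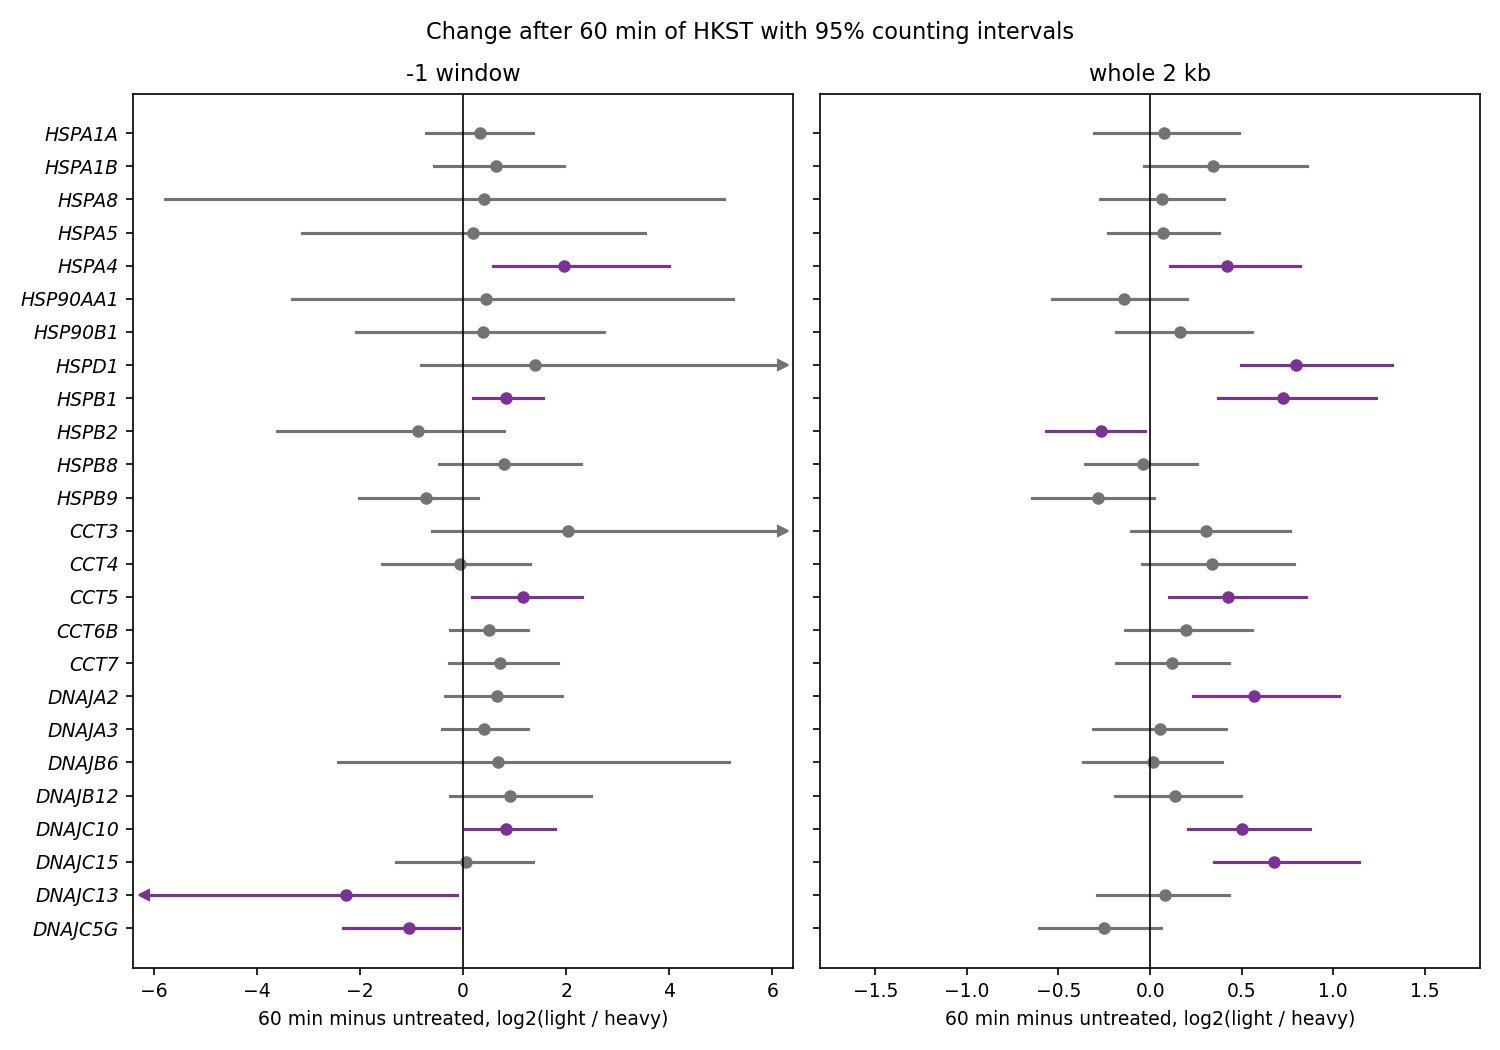
Change of log2 light over heavy signal between 60 min of HKST and untreated cells (60 min minus untreated) at 25 named promoters, in the -1 window (left) and over the whole 2 kb (right), with exact 95% counting intervals as bars, intervals that exclude 0 in purple, and arrows where a bar leaves the axis. HSPD1 and HSPB1 lead the right panel at 0.80 and 0.73, and HSPA1A, HSPA8 and HSP90AA1 straddle 0 in both panels.

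The whole 2 kb holds more fragments and gives narrower intervals, and this window was added after the data were examined. At 60 min, 12 of 84 members, at 11 start sites, lay above 0 and 5, at 4 start sites, below, against 8.07% and 9.33% of all promoters. HSPD1, the mitochondrial chaperonin HSP60, came first. It had 0.660 rpm of light and 0.938 rpm of heavy signal in untreated cells, 0.931 and 0.864 rpm at 40 min, and 0.970 and 0.731 rpm at 60 min. Light signal was higher and heavy signal lower at both HKST times. Its log2 ratio was 0.36 at 60 min, against -0.44 in untreated cells, a change of 0.80 (0.49 to 1.32) that only 16 of 16260 promoters exceeded, and at 40 min the change was 0.53 (0.14 to 1.07). In the -1 window alone HSPD1 had 16 light fragments and 1 heavy fragment at 60 min, against 12 and 4 in untreated cells, and the change of 1.39 had an interval that included 0. HSPB1 had 1.45 rpm of light and 1.06 rpm of heavy signal at 60 min, against 1.23 and 1.56 rpm in untreated cells, and changed by 0.73 (0.37 to 1.23), with 41 promoters higher. Of its 200 bins 86 held no value, most of them upstream.

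Next over the whole 2 kb came J-proteins and chaperonin subunits. DNAJC15, a J-protein of the mitochondrial inner membrane, changed by 0.68 (0.35 to 1.14), DNAJA2, a cytosolic partner of HSP70, by 0.57 (0.23 to 1.03), and the chaperonin subunits CCT8 and CCT2 by 0.55 (0.15 to 1.07) and 0.44 (0.07 to 0.96). In the -1 window none of these had an interval that excluded 0. There CCT8 had no heavy signal in untreated cells or at 40 min. Its change of -0.75 at 60 min, the lowest of the cytosolic chaperonin promoters, rests on few heavy fragments and shows no direction. CCT2 was slightly lower there at 60 min than in untreated cells. HSPA4, CCT5 and DNAJC10, which rose in the -1 window, rose here too, by 0.42, 0.43 and 0.50, and HSPA14 and DNAJC16 by 0.47 and 0.46. A positive change was seen at 54 of 84 members, against 50.6% of all promoters, and the members' median was 0.08, against 0.00 over all promoters. By family, positive changes were seen at 9 of 10 cytosolic chaperonin promoters (median 0.32), 10 of 15 HSP70 promoters (0.07), 4 of 4, 8 of 14 and 19 of 28 J-proteins of classes A, B and C (0.16, 0.01 and 0.08), and 1 of 9 small heat shock proteins (-0.19), and no test compares the families. The promoters that fell were DNAJC5B and DNAJC6 (-0.49 and -0.42), which encode a testis J-protein and the neuronal clathrin uncoating factor auxilin, the antisense transcript DNAJB8-AS1 (-0.31), and HSPB2 with its readthrough (-0.27). At 40 min 8 members lay above 0, at 7 start sites, and 1 below, against 5.91% and 5.26% of all promoters. The highest of these were HSPA14 (0.58), HSPD1 (0.53), DNAJC10 (0.52) and DNAJC11 (0.47), and DNAJC5B (-0.45) fell.

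**Figure D4:**
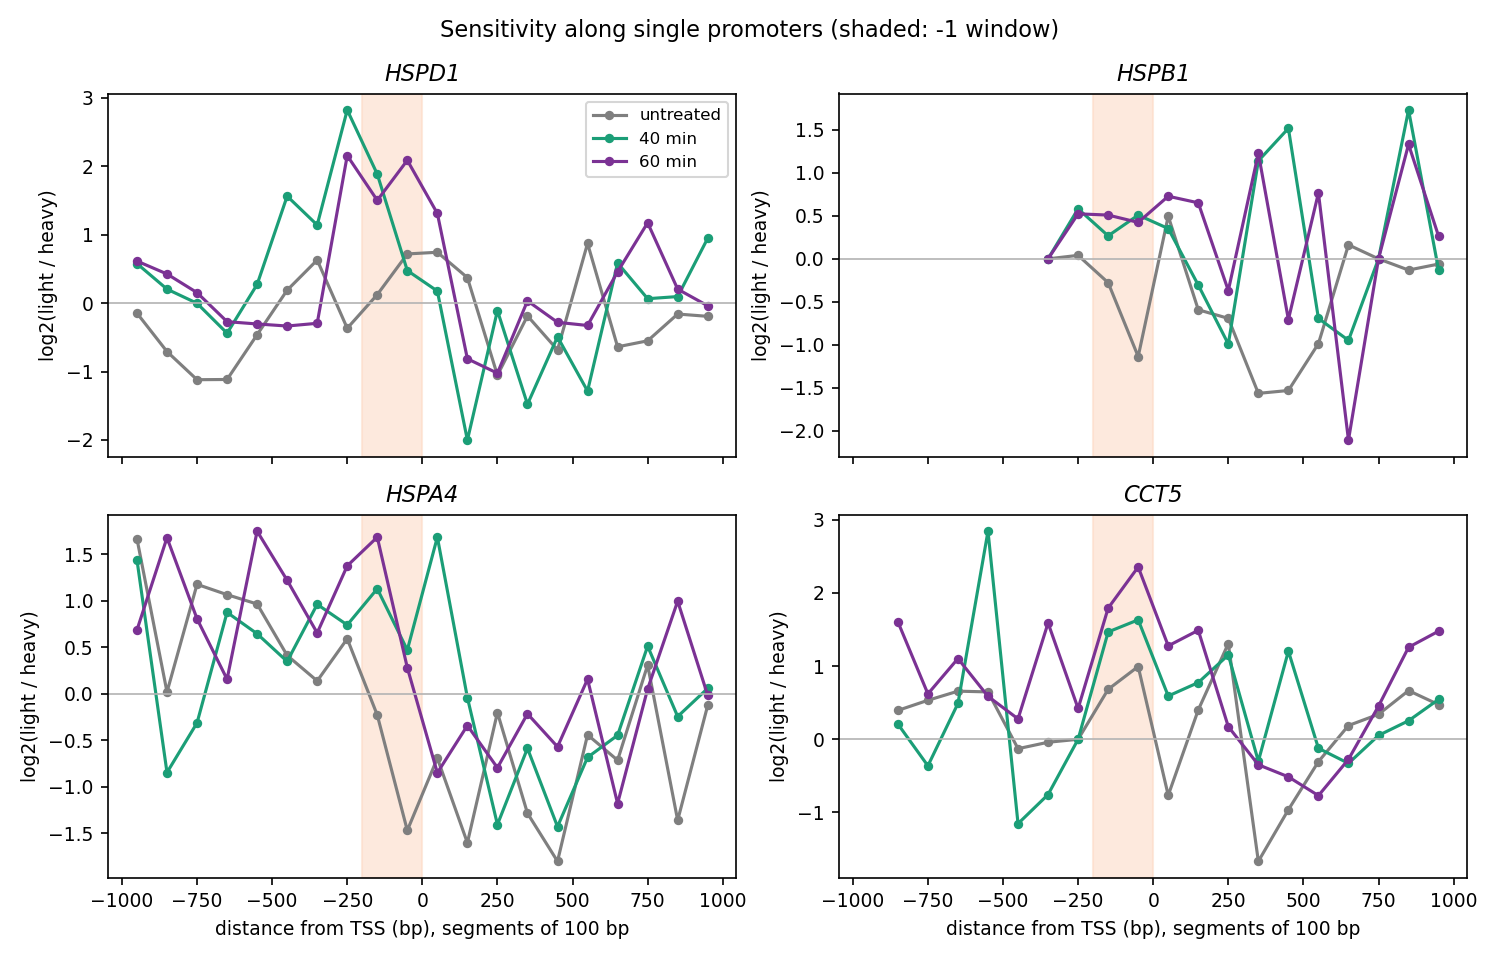
Log2 of light over heavy signal in segments of 100 bp against the distance from the TSS, at HSPD1, HSPB1, HSPA4 and CCT5, in untreated cells (grey) and at 40 min (green) and 60 min (purple) of HKST, with the -1 window shaded. At HSPD1 both HKST lines peak between -300 and -200 bp, at 2.82 at 40 min and 2.16 at 60 min, against -0.37 in untreated cells, and single segments elsewhere scatter widely.

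Along HSPD1 the 100 bp before the -1 window, between -300 and -200 bp, had 16.7 light and 0.25 heavy fragments at 40 min and 12.4 and 0.833 at 60 min, against 4.83 and 3.58 in untreated cells. The segment lies close to the start of HSPE1, which encodes the co-chaperonin of HSP60. A second difference stood 700 to 800 bp downstream of the TSS, with 81.8 light and 24.5 heavy fragments at 60 min, against 36.3 and 28.5 in untreated cells. Fractions arise because a fragment near the edge of a segment is split between neighbors.

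The near-identical HSPA1A and HSPA1B did not move past counting error. HSPA1A had 35 light and 29 heavy fragments in the -1 window of untreated cells, 32 and 11 at 40 min, and 42 and 37 at 60 min, and HSPA1B had 39 and 19, 25 and 6, and 40 and 16. Both had the fewest heavy fragments at 40 min, when the heavy table was shallowest. With signal scaled to depth, the change at 40 min was 0.67 at HSPA1A and 0.39 at HSPA1B, with intervals that included 0. The change at 60 min was 0.32 (-0.71 to 1.35) at HSPA1A and 0.64 (-0.57 to 1.96) at HSPA1B, and over 2 kb it was 0.07 (-0.31 to 0.49) and 0.35 (-0.04 to 0.86). DNAJB1 had no more than 1 light fragment and no heavy fragment in its -1 window at any of these times, and HSPA12A had no fragment there at all, so a change could not be measured at either.

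Several of the best known chaperone genes had too few fragments in the -1 window for a comparison. HSP90AA1 had 4 light and 2 heavy fragments without HKST, 7 and 0 after 40 min, and 6 and 2 after 60 min. HSPA5 had 5 and 3 without HKST, 7 and 2 after 40 min, and 6 and 4 after 60 min. HSPA9, the mitochondrial HSP70, and HSPH1 had no heavy fragment at any of these times and no more than 5 light ones. At the other end, DNAJB8, a testis J-protein, was filled around a start site that is approximate. Its -1 window had 8.60 rpm of light and 12.6 rpm of heavy signal in untreated cells, 7.32 and 12.6 rpm at 40 min, and 6.69 and 13.1 rpm at 60 min, and the signal between -100 and 50 bp was above that of the 2 kb (1.61 on the log2 scale), the highest of the group. Heavy depth was below light depth at each time, so equal counts mean more heavy than light signal. Among the small heat shock proteins with resistant promoters, HSPB8 had 19 light and 27 heavy fragments without HKST, 24 and 16 after 40 min, and 19 and 19 after 60 min, and HSPB2 had 10 and 10, 15 and 10, and 5 and 17. None of these had an interval of the -1 change against untreated cells that excluded 0.

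The 22 members with a heat shock element had a median -1 change of 0.42 at 60 min over 21 promoters, and the others 0.11 over 63. At 40 min the medians were 0.39 and 0.11. The order was the other way in untreated cells, where the median log2 ratio was 0.09 with the element and 0.34 without, and the same untreated values enter the changes. Quartiles at 60 min overlapped, at -0.04 and 0.82 with the element and at -0.15 and 0.71 without. HSPD1, HSPA8 and DNAJB6 all hold the form of 3 units. Over 2 kb at 60 min HSPD1 stood at 0.80 (0.49 to 1.32), the highest change of all members. That window was added after the data were examined, and a link between the length of the run and the change was not tested. HSPA8 stood at 0.06 (-0.27 to 0.40) and DNAJB6 at 0.02 (-0.36 to 0.39).

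The 20 min comparison covered 17 members on 3 chromosomes (9 on chromosome 1, 7 on chromosome 10 and 1 on chromosome 11). The same promoters had a median log2 ratio of 0.79 at 20 min and 0.42 without HKST. The median change was 0.21, against 0.08 over all promoters compared. Rises of 1 or more were seen at 5 members, at 4 of 16 start sites, and falls at 0 (all promoters: 11.8% and 5.36%), and none of 16 intervals excluded 0 (all promoters: 2.02% above and 1.97% below). CCT3, another chaperonin subunit, had the highest value, with 11 light and 0 heavy fragments at 20 min, against 3 and 3 in untreated cells. The difference of 2.15 had a lower bound of -0.54. HSPB7, a small heat shock protein of the heart, had 46 light and 9 heavy fragments at 20 min, against 36 and 21 in untreated cells, a change of 1.07 (-0.24 to 2.63). Over the whole 2 kb HSPB7 rose by 0.35 (0.07 to 0.66) and DNAJC24 by 0.43 (0.03 to 0.94), and none fell (all promoters: 10.5% above and 9.45% below). Later, HSPB7 stood at -0.32 at 40 min and -0.30 at 60 min in the -1 window.

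Between 60 and 40 min the group moved little, with a median -1 change of 0.01 over 89 members, against 0.00 over all promoters. Rises of 1 or more were seen at 4 members and falls at 7 (all promoters: 6.50% and 7.45%). Of 75 intervals, 2 lay above 0, at CCT7 and DNAJB12, and none below (all promoters: 1.41% and 2.01%). Over the whole 2 kb 4 members lay above 0 and 10, at 9 start sites, below (all promoters: 4.25% and 7.57%). Among those below were 3 small heat shock proteins, with HSPB9 at -0.59 (-0.99 to -0.31), HSPB3 at -0.48 and HSPB2 at -0.37. Those above were DNAJC15 (0.51), DNAJA4 (0.50), CCT4 (0.44) and CCT5 (0.38).

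Of 55 other genes of protein folding (HSF1 and its relatives, the BAG proteins, HSP90 cochaperones, prefoldin, and folding enzymes of the endoplasmic reticulum), 52 could be compared with untreated cells. Without HKST their -1 window had a median log2 ratio of 0.39, and their median change was 0.02 at 40 min and 0.31 at 60 min. Rises of 1 or more were seen at 5 of 52 at each time (all promoters: 11.5% at 40 min and 9.60% at 60 min) and falls at 3 and 1 (all promoters: 5.61% and 4.29%). Against untreated cells only CHORDC1, a cochaperone of HSP90, had an interval that excluded 0 in the -1 window, above 0, out of 42 intervals at 40 min and 46 at 60 min (all promoters: 1.69% and 2.36% above). It had 39 light and 26 heavy fragments without HKST, 57 and 4 after 40 min, and 57 and 16 after 60 min, and changed by 2.23 at 40 min and 1.51 at 60 min. TCP1, the remaining subunit of the cytosolic chaperonin, which the choice by symbol did not cover, stood 1.56 above untreated cells at 60 min with an interval that included 0. HSF1 had no fragment in its -1 window at any of these times.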

How the data were processed

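Capture MNase-seq of GM12878 promoters was carried out in 16 samples. The authors clipped adapters, aligned read pairs to hg19, kept unique alignments, and counted centers of fragments of 140 to 200 bp in windows of 60 bp every 10 bp. Bowtie2 2.2.2 is the aligner version in the submitters' processing notes. The deposited values are RPM (fragments scaled to table depth), averaged into 10 bp bins and pooled over both replicates, in 8 tables. All values (100%) lay within 0.05 of a whole step. A step was taken to be worth 0.5 of 1 fragment, and the fragment numbers, depths and intervals rest on this. Depths were 9.72 and 5.12 M fragments (untreated light and heavy), 10.5 and 4.12 (20 min), 9.43 and 3.27 (40 min) and 10.1 and 7.04 (60 min). Partial last lines of 3 tables were left out, after 16260 (untreated heavy), 2801 (20 min light) and 6779 (20 min heavy) promoters, and bins without a value were skipped.

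Sensitivity was calculated as log2 of the light to heavy ratio after adding 0.122 rpm (0.1 of the mean value) to both. Intervals of single promoters are exact conditional intervals of the ratio of fragment ratios (95%). The method was tested on simulated data. A call of 1 on the log2 scale or an interval that excludes 0 was counted over all promoters with the same code, and no p-value was calculated. Motifs were searched in GRCh37 over the 300 bp before each deposited start, and start sites compared with GENCODE. The genes named are a list of known chaperones, the members whose intervals exclude 0, and the 4 highest and 4 lowest members with 5 or more heavy fragments per comparison; members named for the whole 2 kb, for the nucleosome-free region, for printed sequences or among the cochaperones were chosen after their values were seen. The members and gene lists were chosen with earlier results of these data known. Alternatives used other pseudocounts, another scaling, another window, a minimum of 5 heavy fragments, 1 promoter per gene, the mean, and the group without neighboring or copied members. Python 3.11.15, numpy 2.4.6, scipy 1.17.1 and matplotlib 3.10.9 were used.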

Additional observations from a re-analysis of the deposited data

Results flagged for a closer look

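At 2 chaperone promoters the -1 log2 ratio at 60 min differed from that at 40 min by more than counting error, by the exact interval of the difference itself. CCT7, a subunit of the cytosolic chaperonin, had 78 light and 21 heavy fragments at 60 min, against 49 and 17 at 40 min, and the difference of 1.26 on the log2 scale had an interval of 0.21 to 2.52. The whole 2 kb did not share it, with -0.09. DNAJB12, a J-protein of the endoplasmic reticulum membrane, had 70 light and 10 heavy fragments at 60 min, against 48 and 10 at 40 min, a difference of 1.35 (0.01 to 3.09). Over 2 kb it was 0.34, with an interval that included 0. Of 75 members with an interval these are the ones that excluded 0, beside 1.41% of all promoters above 0 and 2.01% below, and counting intervals leave out the spread between cultures and digestions.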

How the results depend on the processing

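Of the alternative values for the group's medians and counts, 46 moved by more than the spread (medians) or by over 1.5 times (counts), and none changed sign beyond it. The median -1 change of the members ranged between 0.09 and 0.44 at 20 min, 0.07 and 0.33 at 40 min and 0.08 and 0.34 at 60 min, and its lowest value at 60 min (0.08) came from the whole 2 kb, an alternative chosen after seeing the data. Between 60 and 40 min it lay near 0, at -0.01 with each table rescaled to one median. With a pseudocount of 0.5 of the mean value, the median level was 0.16 at 40 min and 0.23 at 60 min, and with 5 or more heavy fragments it was 0.13 at 40 min. The median nucleosome-free depth in untreated cells was -0.15 with 5 or more heavy fragments, against -2.30 without the minimum; the minimum keeps promoters with signal in that stretch.

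Counts past 2-fold changed with the pseudocount, the minimum of fragments and the window. With 0.5 of the mean value, rises were 0 at 20 min, 0 at 40 min, 1 at 60 min and 0 for 60 against 40 min, and falls were 0 at 40 min, 0 at 60 min and 0 for 60 against 40 min. With 0.02 of the mean value, falls were 2 at 20 min, rises and falls were 24 and 13 at 40 min, 19 and 11 at 60 min, and 10 and 18 for 60 against 40 min. With 5 or more heavy fragments, rises were 1 at 20 min, 2 at 40 min and 2 at 60 min, and falls were 0 at 40 min, 1 at 60 min and 0 for 60 against 40 min. In the window from -250 to -100 bp, rises and falls were 3 and 1 at 20 min and 10 and 13 for 60 against 40 min, and falls were 5 at 40 min and 3 at 60 min. Over the whole 2 kb, rises were 0 at each time and falls 0 at 40 min, 0 at 60 min and 0 for 60 against 40 min.

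Counts past counting error over the whole 2 kb were 2 above 0 at 20 min, 8 above and 1 below at 40 min, 12 above and 5 below at 60 min, and 4 above and 10 below for 60 against 40 min. In the window from -250 to -100 bp they were 2 above at 40 min and 0 above for 60 against 40 min. Of 604 values of single members, 596 moved by less than their interval and 6 by more. A change of sign was counted only where the main interval excluded 0. It was found for 2 values, namely DNAJC13 at 60 min (0.079 over 2 kb) and CCT7 for 60 against 40 min (-0.089 over 2 kb). Members whose interval included 0 could change sign without being counted. DNAJC11 did so for 60 against 40 min, with 0.66 in the -1 window and -0.40 over 2 kb. The cause was not tested.

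No paired analysis was possible because both replicates are pooled in each table, and for the same reason no replicate could be left out. The minimum of heavy fragments was not run for the change of light signal, which uses no heavy table. Depth also limits the -1 window, where 13 of 84 members had no heavy fragment in untreated cells and 26 of 89 had none at 40 min.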
